A study of Mus musculus with 3 samples.

Results

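Mirlet7a-1, Mirlet7a-2, Mirlet7c-1, Mirlet7c-2, Mirlet7f-1 and Mirlet7f-2 are the 6 mouse hairpins whose 5p arms carry a let-7 miRNA that a second hairpin encodes base for base. They were chosen by name, as the let-7 hairpins with 2 genomic copies, and make up 6 of the 12 let-7 family hairpins placed in these alignments and 6 of the 1005 mouse miRNA hairpins in the RefSeq table used here. The small RNA came from MIN6, an insulin-secreting mouse cell line that was established from a pancreatic beta cell tumor (insulinoma). The cells were grown in DMEM with 25 mM glucose and serum, and 3 libraries were made, labelled as replicates 1, 2 and 3 of this condition. All share this condition, so no test between groups was possible, and values are given per library and as mean ± SD. Paired differences between hairpins in 3 libraries cannot go below p = 0.25 in a two-sided exact test, so none is given. The libraries held 9269795, 10816006 and 10218743 mapped reads, of which 71.3% to 71.8% matched the genome throughout. miR-375, which is abundant in pancreatic endocrine cells, reached 354247 ± 18597 RPM (reads scaled to the mapped total, SD, n = 3) and checks the MIN6 label.

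A miRNA hairpin is cut by Drosha in the nucleus and by Dicer in the cytoplasm into a short duplex, from which 1 strand is usually loaded into Argonaute and the other is degraded. The bases just after the first one form the seed, which pairs with target mRNAs, and a change of the 5′-start therefore changes the seed. The let-7 family is among the most conserved in animals and is known for promoting differentiation and for restraining growth genes. Maturation of its precursors is blocked by LIN28, and terminal uridylyl transferases add U to the 3′-end of let-7 precursors. The 3′-end of the 3p strand is also the 3′-end of the precursor.

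The 3 mature 5p sequences are shown first, because their identity between copies sets what these libraries can tell apart. The sequences are from RefSeq, all 6 hairpins were matched by symbol, and the seed (bases 2 to 8) is in capitals.
let-7a-5p: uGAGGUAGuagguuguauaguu
let-7c-5p: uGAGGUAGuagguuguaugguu
let-7f-5p: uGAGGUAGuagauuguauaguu
All share the seed GAGGUAG. Counted from the 5′-end, let-7a differs from let-7c by A19G and from let-7f by G12A, so a single sequencing mismatch can place a read equally far from both.

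The hairpins themselves differ between copies in the loop and at some bases of the 3p arm. They are printed with both mature arms in capitals, at their GRCm38.p6 positions.
Mirlet7a-1, chr13:48538179-48538272, minus strand: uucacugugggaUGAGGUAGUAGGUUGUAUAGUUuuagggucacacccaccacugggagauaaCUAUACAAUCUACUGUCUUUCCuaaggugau
Mirlet7a-2, chr9:41536716-41536811, plus strand: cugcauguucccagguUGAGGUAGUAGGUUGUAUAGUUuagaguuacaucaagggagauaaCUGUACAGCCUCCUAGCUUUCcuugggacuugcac
Mirlet7c-1, chr16:77599657-77599750, plus strand: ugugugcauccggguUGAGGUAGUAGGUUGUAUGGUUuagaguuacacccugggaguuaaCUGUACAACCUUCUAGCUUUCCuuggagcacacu
Mirlet7c-2, chr15:85706603-85706697, plus strand: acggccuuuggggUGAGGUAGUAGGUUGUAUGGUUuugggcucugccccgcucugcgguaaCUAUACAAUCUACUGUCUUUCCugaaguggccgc
Mirlet7f-1, chr13:48537829-48537917, minus strand: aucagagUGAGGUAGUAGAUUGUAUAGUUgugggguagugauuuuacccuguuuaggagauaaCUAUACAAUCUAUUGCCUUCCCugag
Mirlet7f-2, chrX:151912346-151912428, plus strand: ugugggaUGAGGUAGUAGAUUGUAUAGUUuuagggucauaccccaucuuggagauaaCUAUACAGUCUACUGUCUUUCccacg

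In GENCODE on the same build and strand, Mirlet7a-1 and Mirlet7f-1 lie in exons of the long noncoding RNA gene 6720427I07Rik, with 350 nt between their 5p starts, and Mirlet7c-2 lies in an exon of the noncoding gene Lncppara. Mirlet7a-2 lies in an intron of 3110039I08Rik, Mirlet7c-1 in an intron of Mir99ahg, the host of miR-99a, and Mirlet7f-2 in an intron of Huwe1, which encodes a ubiquitin ligase. The alignments use the older build mm9. There the first bases of the 5p reads, counted from 1, were at 48633629 on chromosome 13 (Mirlet7a-1), 41344815 on chromosome 9 (Mirlet7a-2), 77599917 on chromosome 16 (Mirlet7c-1), 85537046 on chromosome 15 (Mirlet7c-2), 48633279 on chromosome 13 (Mirlet7f-1) and 148346896 on chromosome X (Mirlet7f-2). For each hairpin exactly 1 start on its chromosome and strand matched. No base that the alignments recorded as a mismatch at these 6 hairpins equalled the RefSeq base, over 28 to 47 positions per hairpin.

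let-7c had the highest 5p level of the 3 sequences, let-7f followed and let-7a was lowest. At the reference start, the reads placed at Mirlet7c-1 were 4612, 6599 and 5090.3 RPM in replicates 1, 2 and 3, with a mean of 5434 ± 1037 RPM (SD, n = 3). Its copy Mirlet7c-2 was at 4673, 6691 and 5157 RPM, a mean of 5507 ± 1053 RPM. Mirlet7f-1 was at 3088, 3295 and 3439 RPM (mean 3274 ± 176) and Mirlet7f-2 at 3313, 3508 and 3694 RPM (mean 3505 ± 190.4). Mirlet7a-1 was at 1870.2, 2391 and 2189 RPM (mean 2150.0 ± 263) and Mirlet7a-2 at 1866, 2382 and 2184 RPM (mean 2144 ± 259.9). The libraries of let-7c, let-7f and let-7a hairpins did not overlap. The copies of 1 sequence overlapped in every case, but the equal division of shared reads, described below, largely sets this. The values of a single copy are therefore not a measure of its own output.

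**Figure D1:**
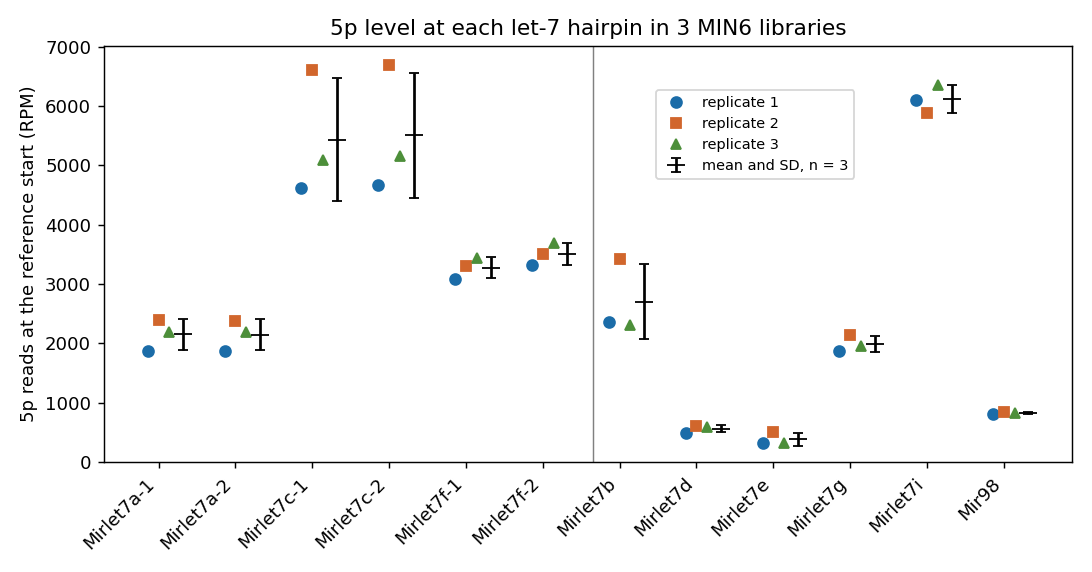
The plot of 5p levels gives RPM at the reference start (vertical axis) for each let-7 family hairpin (horizontal axis), with a symbol per library and the mean and SD of 3 libraries beside them. The 6 hairpins with a copy stand left of the line, and the square of replicate 2 lies far above the other libraries for Mirlet7c-1, Mirlet7c-2 and Mirlet7b.

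Summed over both copies, let-7c reached 10941 ± 2090.5 RPM, let-7f 6779 ± 366 RPM and let-7a 4294 ± 522 RPM (SD, n = 3). The 6 hairpins together held 19424, 24865 and 21753 RPM, or 2.2% ± 0.273 of the mapped reads. This was 63.5% ± 1.55 of the 5p reads of the 12 placed family hairpins. Of the hairpins without a copy, let-7i was highest at 6114 ± 236 RPM, within the range of a single let-7c hairpin and below the summed let-7f level in every library. let-7g, at 1989 ± 139.9 RPM, overlapped with each let-7a hairpin. let-7b was at 2700.3 ± 629 RPM, miR-98 at 826 ± 13.3 RPM, let-7d at 562 ± 59.4 RPM and let-7e at 384 ± 111 RPM.

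The libraries did not rank alike for the 3 sequences. let-7c was 36.1% higher in replicate 2 than in the mean of replicates 1 and 3, and let-7a was 17.7% higher. let-7f differed by 0.519%, and replicate 3 was its highest library. Among the other members, replicate 2 was 59.9% higher for let-7e, 46.6% for let-7b, 11.9% for let-7g, 11% for let-7d and 2.41% for miR-98, and let-7i dropped by 5.56%. The 3p reads shared by Mirlet7a-1 and Mirlet7c-2 dropped by 0.501% in that library, and let-7b 3p was 0.406% higher. The cause of these differences between libraries was not tested.

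Nearly all 5p reads were compatible with both copies. The authors divided a read with several equally good loci equally among them, and the files hold the divided values. To see which reads were shared, the sequence of each read was rebuilt from its position and mismatches, and identical reads were pooled over the 12 hairpins. Of 2452 distinct reads at the 6 starts, counted per library, 2386 gave a whole number within 0.01 when pooled, and the others held 0.0174% of the reads. In 0 of them did the values differ between hairpins by more than 0.01, so the division gives each copy the same share whatever its true output.

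A whole number at 1 hairpin did not mark a read of that hairpin. Whole-number values held 52.2%, 47.3% and 37.0% of the 5p reads in replicates 1, 2 and 3 (mean 45.5% ± 7.78). At Mirlet7a-1 they held 80.8%, 76.5% and 13.1%. The reads with exactly the 22 bases of let-7a numbered 19828, 30036 and 25955, and their equal division between 2 copies is whole for the first pair of libraries and ends in a fraction for the third. Sharing was therefore read from the pooled sequences.

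By the pooled reads, 93.0% ± 0.509 of the 5p reads of the 6 hairpins were placed at both copies, 5.54% ± 0.390 were also placed at another let-7 sequence, and 1.46% ± 0.131 were found at 1 hairpin only (SD, n = 3). Mirlet7f-2 had the largest share of reads found at it only, 6.57% ± 0.348, which was 2059, 2344 and 2580 reads in replicates 1, 2 and 3. Of these, 1742, 1993 and 2187 were the mature sequence and a U, which cannot be assigned to it on sequence alone, as described below. The share was 0.906% ± 0.0346 for Mirlet7c-2, 0.442% ± 0.0698 for Mirlet7a-1, 0.373% ± 0.0887 for Mirlet7f-1, 0.262% ± 0.0135 for Mirlet7c-1 and 0.112% ± 0.00916 for Mirlet7a-2. All of these reads were 23 nt or longer in every library, that is, they reached past the mature sequence.

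**Figure D2:**
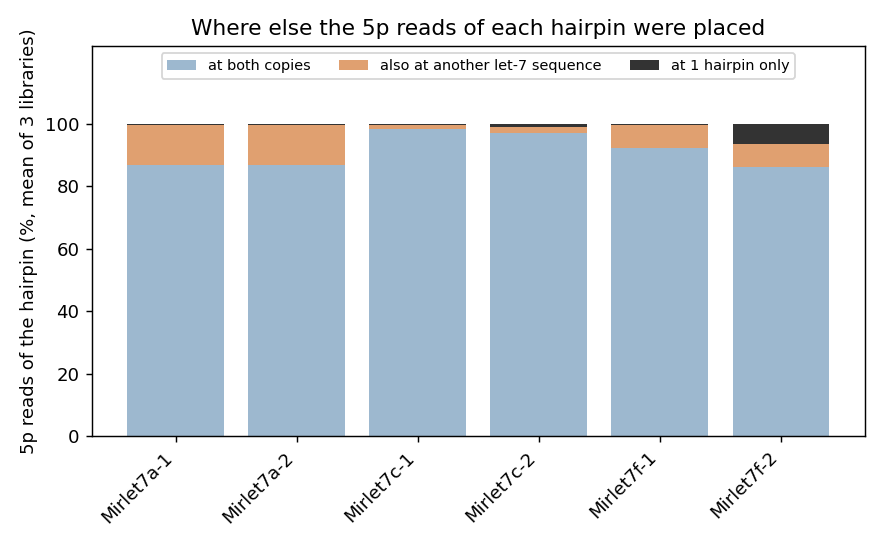
The bars of read placement split the 5p reads of each hairpin (percent, mean of 3 libraries) into those placed at both copies, those also placed at another let-7 sequence and those found at 1 hairpin only. The black segment is visible mainly for Mirlet7f-2 (6.57%), and the segment shared with another let-7 sequence is tallest for the let-7a hairpins (12.8% at each).

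The bases that separate the copies on the 5p side are those that follow the mature sequence, shown here in capitals.
Mirlet7a-1: ugagguaguagguuguauaguuUUAG
Mirlet7a-2: ugagguaguagguuguauaguuUAGA
Mirlet7c-1: ugagguaguagguuguaugguuUAGA
Mirlet7c-2: ugagguaguagguuguaugguuUUGG
Mirlet7f-1: ugagguaguagauuguauaguuGUGG
Mirlet7f-2: ugagguaguagauuguauaguuUUAG
The let-7f copies part at the first of these bases, G against U, and the let-7a and let-7c copies at the second, U against A.

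For let-7f, 1742, 1993 and 2187 reads in replicates 1, 2 and 3 were the mature sequence and a U, as Mirlet7f-2 encodes it, and 58, 93 and 71 reads were the mature sequence and a G, as Mirlet7f-1 encodes it. Relative to the reads of exactly 22 bases, these were 4.58% ± 0.281 and 0.170% ± 0.0258 (SD, n = 3). let-7i, whose single locus continues with G, gives the same ends without a template for U: the U form was 5.0% ± 0.118 and the G form 0.0722% ± 0.0203 of its 22-base reads. miR-98, which also continues with G, had 3.62% ± 0.105 with U and 0.0701% ± 0.0336 with G. let-7e continues with G as well, and its G form was higher, at 8.76% ± 1.08. Its U form was at 12.6% ± 1.47, in reads also placed at the let-7a hairpins. A U copied from Mirlet7f-2 and a U added after the let-7f strand of either copy give the same read, so they cannot be told apart here, and the U-ended reads cannot be assigned to Mirlet7f-2 on sequence alone.

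let-7c reads with UU, as Mirlet7c-2 encodes, numbered 164, 298 and 211, and those with UA, as Mirlet7c-1 encodes, 8, 20 and 17. Relative to reads with a single U, which both copies encode, UU was 4.53% ± 0.244 and UA 0.298% ± 0.0770. For let-7a, UU (Mirlet7a-1) was found in 27, 57 and 39 reads and UA (Mirlet7a-2) in 4, 4 and 4 reads, or 3.30% ± 0.610 and 0.338% ± 0.0644 of the reads with a single U. Family members with a single locus had these ends as well. At let-7i, where neither end is encoded, UU was 0.983% ± 0.0437 and UA 0.200% ± 0.0964 of the reads with a U. At let-7b, which encodes U and then C, UU was 15.8% ± 0.535 and UA 1.10% ± 0.0708. At let-7d, which encodes UU, they were 5.12% ± 1.57 and 0.673% ± 0.158. At let-7g, which encodes U and then G, they were 2.70% ± 0.283 and 0.302% ± 0.344. miR-98 (2.08% ± 1.55 and 0.642% ± 0.220) and let-7e (5.48% ± 2.57 and 0.717% ± 0.845) continue with G. The let-7b reads with these ends were also placed at let-7c hairpins, and those of let-7e at let-7a hairpins. For both ends, the let-7a and let-7c values lay within the range of these members. Whether the UU and UA reads were encoded or added was not tested.

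Reads of 22 nt made up 80.7% ± 0.362 of the 5p reads at the 6 reference starts. The 22 nt share was 83.4% ± 0.410 for let-7c, 78.2% ± 0.784 for let-7f and 78.0% ± 0.571 for let-7a. Reads of 21 nt were less frequent for let-7c, at 8.13% ± 0.363, than for let-7f, at 15.5% ± 0.583, and let-7a, at 14.7% ± 0.366, with no overlap between the libraries of let-7c and those of the others. Reads of 23 nt were at 6.50% ± 0.0858 for let-7c, 5.52% ± 0.0855 for let-7a and 5.25% ± 0.206 for let-7f. At single hairpins, Mirlet7c-2 had 1.57%, 1.62% and 1.55% of reads of 24 nt in replicates 1, 2 and 3, compared with 0.318% ± 0.00281 at Mirlet7c-1. Mirlet7f-2 had 8.33% ± 0.347 of 23 nt, compared with 1.95% ± 0.187 at Mirlet7f-1. These values depend on placement. The 24 nt reads at Mirlet7c-2 include a part of the let-7b reads with UU (391, 651 and 407), which were also placed at let-7b. The 23 nt reads at Mirlet7f-2 include the U-ended let-7f reads, which cannot be assigned to it on sequence alone.

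The 5′-starts of the 5p strand were nearly uniform. Within 3 bases of the reference start, shifted starts held 0.527% ± 0.0547 of the arm's reads, and no shifted start reached 1% for any of the 6 hairpins. The share was 0.792% ± 0.0639 for let-7c, 0.278% ± 0.0534 for let-7a and 0.260% ± 0.0323 for let-7f. The start 1 base downstream held 0.441% ± 0.0194 of the let-7c reads, compared with 0.0203% ± 0.00760 for let-7a and 0.0265% ± 0.00610 for let-7f.

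A mismatch was found in 27.4% ± 1.05 of the let-7a reads, 20.8% ± 0.645 of the let-7f reads and 17.7% ± 0.207 of the let-7c reads, and the most frequent of these mismatches was a C within the read. These shares include reads with C at position 12 that were divided equally between let-7a and let-7f, as given below. Such reads were 9.01% ± 0.719 of the let-7a reads and 5.67% ± 0.0900 of the let-7f reads. The form with C at position 10 (A10C), counted against the reads of exactly 22 bases, stood at 16% ± 0.615 for let-7a, 15.4% ± 0.154 for let-7c and 12.3% ± 0.898 for let-7f, and at 17.0% ± 0.00817 for let-7i. Over all mapped reads of 22 nt, a mismatching C at position 10 was found in 1.32% ± 0.127. That value is counted against all these reads, whatever base is encoded there, and includes the let-7 reads, so it is not a like measure. C at position 17 (A17C) was at 1.16% ± 0.130 for let-7a, 1.44% ± 0.409 for let-7c (reads equally far from let-7b, as G17C, and also placed there) and 0.743% ± 0.10 for let-7f. C at position 7 of the read (A7C), which lies within the seed, was at 0.369% ± 0.0458 for let-7a, 0.418% ± 0.00424 for let-7c and 0.292% ± 0.0264 for let-7f. The source of these mismatches was not tested.

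**Figure D3:**
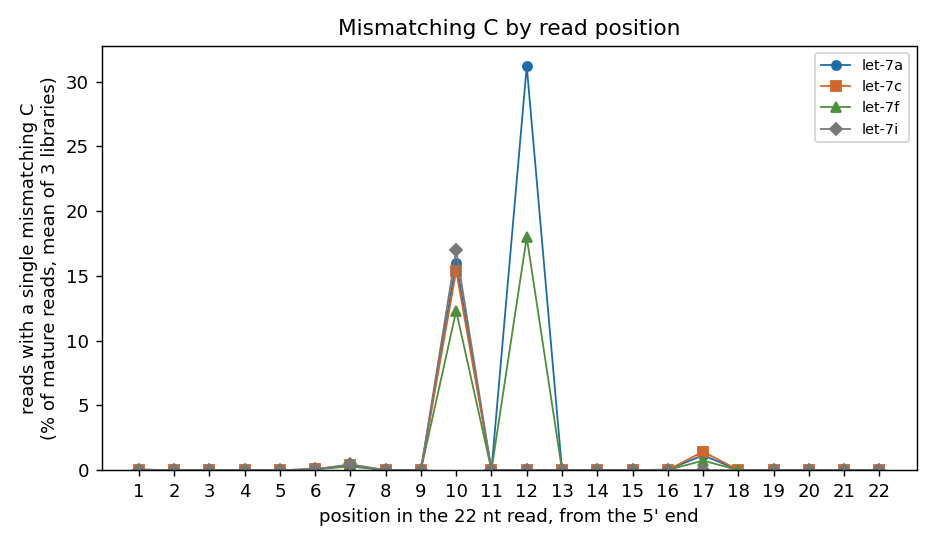
The plot of mismatching C gives, for each position of the 22 nt read counted from the 5′-end (horizontal axis), the reads with a single mismatching C as percent of the mature reads (vertical axis, mean of 3 libraries). Position 10 stands out in all 4 sequences (12.3% to 17.0%), and position 12 in let-7a and let-7f only, where both curves rest on the same reads.

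C at position 12 linked let-7a and let-7f. The read has G at this position in let-7a and A in let-7f, so a C gives 1 sequence that is equally far from both (G12C from let-7a and A12C from let-7f), and it was divided among all 4 hairpins. It was read 6684, 8498 and 8177 times. The part placed at the let-7a hairpins was 9.01% ± 0.719 of all let-7a 5p reads, and the equal part at the let-7f hairpins was 5.67% ± 0.0900 of the let-7f reads. In let-7c, which has G at position 12 as let-7a does, C at this position was 0.0151% of the 22-base reads. Without any read placed at another let-7 sequence, the summed levels were 3747 ± 489 RPM for let-7a, 10770.4 ± 2071 RPM for let-7c and 6285 ± 340.4 RPM for let-7f, in the same order as before.

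The 3p arms differ between copies, with 1 exception that joins a let-7a and a let-7c hairpin, and they are shown with their seeds in capitals.
Mirlet7a-1 3p: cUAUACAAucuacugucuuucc
Mirlet7c-2 3p: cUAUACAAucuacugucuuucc
Mirlet7f-1 3p: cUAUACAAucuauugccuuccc
Mirlet7f-2 3p: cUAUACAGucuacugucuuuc
Mirlet7a-2 3p: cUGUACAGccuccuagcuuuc
Mirlet7c-1 3p: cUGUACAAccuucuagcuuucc
Mirlet7a-1 and Mirlet7c-2 have 0 differences over the first 21 bases, and Mirlet7f-1 has the same seed as both. From Mirlet7f-1 to Mirlet7f-2 there are 4 differences, A8G, U13C, C16U and C20U, the first of them in the seed. From Mirlet7a-1 to Mirlet7a-2 there are 6 and from Mirlet7c-1 to Mirlet7c-2 there are 5.

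The copies differed in their 3p reads. Mirlet7a-2 had 0 reads in every library, where a count of 0 allows up to 3 reads, that is 0.324, 0.277 and 0.294 RPM in replicates 1, 2 and 3. This limit covers only reads that match throughout, since mismatched reads were sought only near exact matches. At Mirlet7f-2, 96.8% ± 1.31 of the 3p arm reads carried a mismatch, and such reads could go uncounted at an arm without exact reads. Mirlet7c-1 had 4, 0 and 1 reads, a mean of 0.176 ± 0.226 RPM. The sequence common to Mirlet7a-1 and Mirlet7c-2 was read 509.17, 552 and 487 times, or 51.2 ± 3.64 RPM (SD, n = 3), and was placed in equal parts of 25.6 ± 1.82 RPM at each. For let-7a and let-7c, then, the copies with reads on the 3p arm were Mirlet7a-1 and Mirlet7c-2, whose 3p reads cannot be told apart, and the other copy of each was at or near 0. Whether this reflects the amount of each hairpin, the stability of its 3p strand or the search for mismatched reads was not tested. Counting limits and intervals here cover counting error only, since reads without molecular identifiers are not independent molecules.

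Both let-7f copies had 3p reads of their own. Mirlet7f-1 was read 100, 98 and 64 times, or 10.8, 9.06 and 6.26 RPM (mean 8.70 ± 2.28), and Mirlet7f-2 145.33, 187 and 177 times, or 15.7, 17.3 and 17.3 RPM (mean 16.8 ± 0.939). Mirlet7f-2 was higher in 3 of 3 libraries and its values did not overlap with those of Mirlet7f-1. Its share of the let-7f 3p reads was 59.2% (95% Wilson interval 52.9% to 65.2%), 65.6% (59.9% to 70.9%) and 73.4% (67.5% to 78.6%) in replicates 1, 2 and 3, a mean of 66.1% ± 7.11. On the 5p arm, where the division sets most of the value, the share of Mirlet7f-2 was 51.7% ± 0.118.

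**Figure D4:**
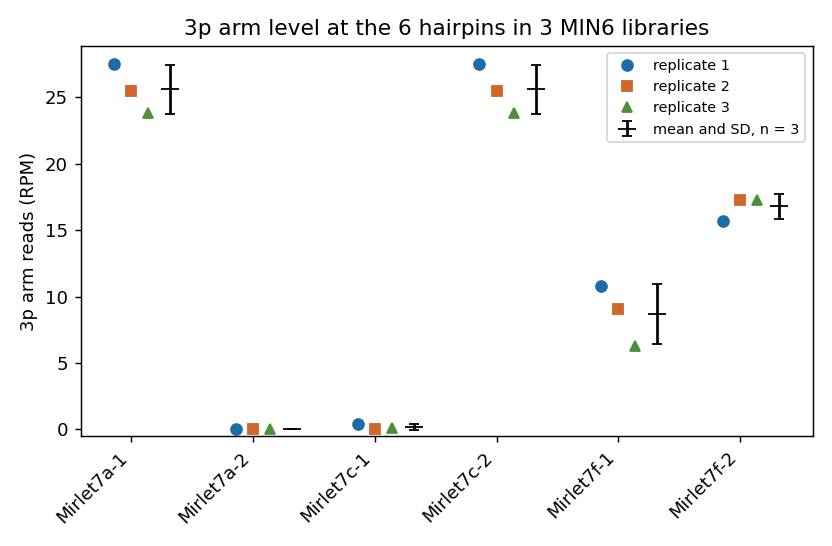
The plot of 3p levels gives RPM over the 3p arm (vertical axis) for the 6 hairpins, with a symbol per library and the mean and SD of 3 libraries beside them. Mirlet7a-2 lies at 0 and Mirlet7c-1 at 0.176 RPM, the equal values of Mirlet7a-1 and Mirlet7c-2 come from the division of 1 shared set of reads, and Mirlet7f-2 lies above Mirlet7f-1.

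The 5p strand exceeded the 3p strand by far. Over the 6 hairpins the ratio of 5p to 3p reads was 239, 323 and 306 (mean 289 ± 44.7). Because the 5p reads are divided between copies, the ratio of a single hairpin is not its own, so it is given per group: 300.4 ± 60.0 for the let-7a and let-7c hairpins together, and 268 ± 31.3 for the let-7f hairpins. For let-7b, with a single locus, the ratio was 26.4 ± 6.13, and for let-7d it was 1.51 ± 0.264. let-7i, with 952 ± 111, and let-7g, with 801 ± 101, lay on the other side.

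Many 3p reads ended in a U that the hairpin does not encode. Of the reads at the reference 3p start, 53.6% ± 1.89 ended in a mismatching U for the sequence shared by Mirlet7a-1 and Mirlet7c-2, 74.7% ± 3.29 for Mirlet7f-1 and 96.6% ± 1.03 for Mirlet7f-2 (SD, n = 3), and the libraries of these 3 sequences did not overlap. U made up 98.4% ± 1.39 and 96.9% ± 0.844 of the mismatching last bases of the first and second, and every one at Mirlet7f-2. On the 5p strands of the 6 hairpins, any mismatching last base was found in 1.80% ± 0.0842 of the reads. That is not a like measure, since all but Mirlet7f-1 encode U after the mature 5p sequence, where a U is a match. Mature 5p sequences with a U, relative to reads of exactly 22 bases, were 4.81% ± 0.160 (let-7a), 6.28% ± 0.127 (let-7c) and 4.58% ± 0.281 (let-7f). The leading 3p read of each sequence is printed with its mismatching base in capitals.
Mirlet7a-1 and Mirlet7c-2 3p read: cuauacaaucuacugucuuucU
Mirlet7f-1 3p read: cuauacaaucuauugccuuccU
Mirlet7f-2 3p read: cuauacagucuacugucuuucU
In each case 21 encoded bases were followed by U where the hairpin has C. This form alone was 38.1% ± 2.02 of the 3p reads of Mirlet7a-1 and Mirlet7c-2, 60.3% ± 1.64 of those of Mirlet7f-1 and 71.0% ± 2.78 of those of Mirlet7f-2. It was read 99, 137 and 124 times at Mirlet7f-2 in replicates 1, 2 and 3, where the 21 encoded bases alone were read 5, 3 and 2 times. The fully encoded read of 22 bases made up 17.5% ± 0.338 at Mirlet7a-1 and Mirlet7c-2, and was found in 0, 1 and 0 reads at Mirlet7f-1 and in 0 reads at Mirlet7f-2.

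Other family members with 3p reads at the reference start in every library are given here by the base they encode at this place. let-7g is left out, since 90.8% ± 6.50 of its 20, 34 and 24 3p reads started 1 base downstream. Of its 3p arm reads, 60.2% ± 12.7 had a mismatching last base. let-7b, whose 3p arm also has C as base 22, had a mismatching U in 72.9% ± 2.36 of its 3p reads, and let-7e, with C as well, in 30.6% ± 4.81. At let-7e the U followed 22 encoded bases in 18.2% ± 2.41 of the reads and 21 encoded bases in 11.2% ± 3.59. let-7d, let-7i and miR-98 encode U as base 22, and a mismatching U was found in 0.254% ± 0.0479, 0.575% ± 0.995 and 0.273% ± 0.473 of their 3p reads. At these members a U after 21 encoded bases is a match, so that form cannot be counted as mismatching. Among 3p reads of 22 nt, templated or not, those ending in U were 97.0% ± 1.06 for Mirlet7f-1, 98.2% ± 0.131 for let-7b, 96.7% ± 0.245 for let-7d and 99.7% ± 0.502 for miR-98, and all such reads of Mirlet7f-2 and let-7i ended in U. The value was 69.0% ± 1.34 for the sequence shared by Mirlet7a-1 and Mirlet7c-2 and 17.6% ± 5.32 for let-7e. How the U came to these ends was not tested.

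**Figure D5:**
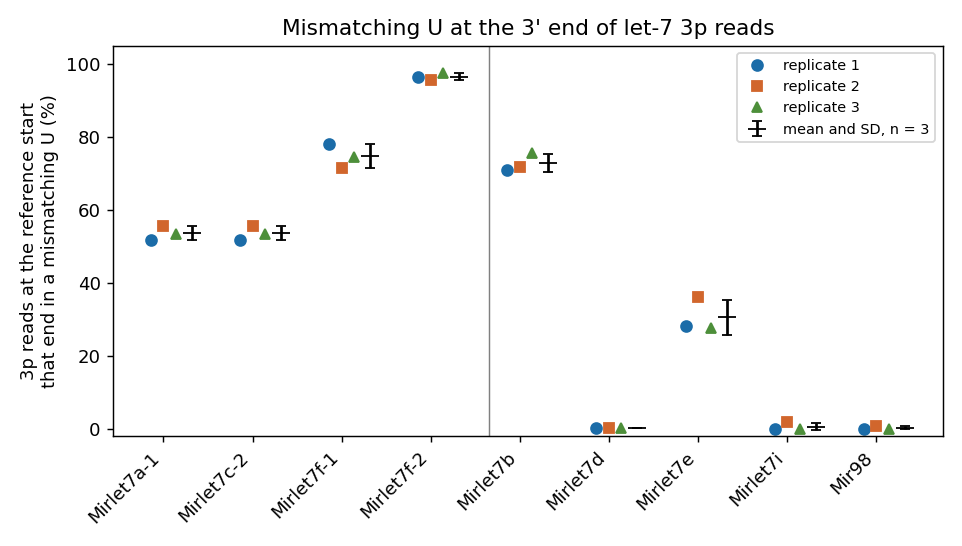
The plot of 3p ends gives the percent of 3p reads at the reference start that end in a mismatching U (vertical axis) for the family hairpins with 3p reads at that start in every library, with a symbol per library and the mean and SD of 3 libraries. The 4 hairpins with a copy lie left of the line, from 53.6% to 96.6%, and let-7d, let-7i and miR-98, which encode U at that place, lie below 1% on average.

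A C at position 12, counted from the start of the 3p read, was the other frequent mismatch. It was found in 24.2% ± 2.52 of the 3p reads of Mirlet7a-1 and Mirlet7c-2, 16.6% ± 0.766 of those of Mirlet7f-1 and 22.4% ± 3.52 of those of Mirlet7f-2, all with A at this position. let-7b, let-7i and miR-98 also have A there and showed 24.3% ± 1.82, 24.1% ± 3.25 and 21% ± 5.04. let-7d has G, and the C was found in 1, 0 and 0 of its 3p reads. Over all mapped reads of 22 nt, whatever base is encoded there, a mismatching C at position 12 was found in 0.705% ± 0.0227.

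The 3p reads of the 6 hairpins were also mostly of 1 length and 1 start. Reads of 22 nt were 76.9% ± 2.11 for Mirlet7a-1 and Mirlet7c-2, 75.0% ± 2.63 for Mirlet7f-1 and 96.2% ± 0.998 for Mirlet7f-2, and reads of 21 nt 14.8% ± 2.84, 19.2% ± 1.16 and 2.97% ± 0.625. The reference start held 99.3% ± 0.424, 99.5% ± 0.902 and 99.2% ± 0.263 of the arm's reads.

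The hairpins near each copy were at very different levels. Distances between 5p starts in mm9 equalled those in GRCm38 for the hairpins placed by their level. miR-99a and miR-100 were placed by that distance. Mirlet7a-1 and Mirlet7f-1 lie in the same gene model as let-7d, 1811 nt from Mirlet7f-1, whose 5p strand was at 562 ± 59.4 RPM and whose 3p strand, at 381 ± 33.2 RPM, was higher than the 3p strands of the 6 hairpins. Mirlet7c-2 lies 709 nt from let-7b, with 2700.3 ± 629 RPM on the 5p and 103 ± 6.34 RPM on the 3p arm. Mirlet7f-2 lies 876 nt from miR-98, with 826 ± 13.3 RPM and 12.6 ± 0.927 RPM. Beside the copies with few or no 3p reads, miR-99a, 732 nt from Mirlet7c-1, was at 53.1 ± 5.78 RPM. miR-100, 5295 nt from Mirlet7a-2, was read 7.5, 12.5 and 7.5 times, or 0.900 ± 0.225 RPM, and miR-125b-1, 45208 nt away, was at 75.5 ± 9.27 RPM, a value that the division of reads with a second miR-125b hairpin also sets. The neighbours of Mirlet7a-2 and Mirlet7c-1 thus had lower 5p levels than let-7b and miR-98, the neighbours of Mirlet7c-2 and Mirlet7f-2, in every library. These are levels of separate strands, and what they say about the output of each let-7 copy was not tested.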

How the data were processed

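Small RNA of 3 MIN6 libraries was sequenced on the Illumina HiSeq after TruSeq small RNA preparation. After adaptor removal (cutAdapt 1.0), the authors mapped reads of 14 to 41 nt to up to 20 perfectly matching loci (Bowtie 0.12.7). Loci closer than 65 nt were joined (bedtools 2.17.0) and lengthened by 5 nt per side, and SHRiMP 2.2.2 then searched these windows with reads left unmapped. The genome build, from the submitters' processing notes, was mm9. The deposited values are expected counts per distinct alignment, in which the authors divided a read among its equally good loci. A mismatched read was thus sought only near exact matches.

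Alignments without a mismatch end 1 base early and were corrected, and starts were read as counted from 0. The 5p start of each hairpin was the single position on its chromosome and strand whose reads matched the study's list of expressed miRNAs within 0.2% in every library, and no value of that list is printed. miR-99a and miR-100 were placed by their RefSeq distance from a member, and let-7k was not placed. Arms include starts within 3 bases of the reference. RPM was computed over all mapped reads. Python 3.11.15, numpy 2.4.6, pandas 2.3.3, scipy 1.17.1 and matplotlib 3.10.9 were used. The rebuilding and pooling of reads was tested on simulated data. The design had taken a whole-number value (within 0.001) as the mark of a single locus. This did not hold, and pooled reads were used. All 6 hairpins, the other let-7 genes, the cluster neighbours, and starts, lengths and ends with at least 1% of an arm's reads in every library are named, together with rarer ends, named after their values were seen. The members and lists were chosen with earlier results of these data known.

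The depth of 9269795 to 10816006 mapped reads means that a count of 0 allows at most 3 reads (0.324 RPM in replicate 1). At an arm without exact reads, this limit covers only reads that match throughout. The methods of the study call the libraries biological replicates, and the SD measures the spread between them.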

Additional observations from a re-analysis of the deposited data

How the results depend on the processing

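Of 22 changes of processing over 7 results, 9 moved the value by less than 1 SD of the libraries. With alignments without a mismatch only, the summed 5p level was 17494 RPM, the summed 3p level 19.6 RPM, the ratio of 5p to 3p reads 912 and the 22 nt share 82.5%. The 3p level fell further than the 5p level. This setting removes every read with a mismatch, at the last base or within the read. Such reads were 20.6% ± 0.483 of the 5p reads. On the 3p arms they ranged from 66.0% ± 1.60 (Mirlet7a-1 and Mirlet7c-2) to 96.8% ± 1.31 (Mirlet7f-2). With whole-number values only, the summed levels were 9978 RPM (5p) and 50.3 RPM (3p), the ratio 205 and the 22 nt share 79.9%. Scaled to the mapped reads without a mismatch instead of all mapped reads, the levels were 30764 RPM (5p) and 107 RPM (3p). Reads found at 1 hairpin only, an alternative chosen after seeing the data, held 1.46% in place of 45.5% in whole-number values. Shifted starts within 6 bases held 0.814%, and a mismatch in any of the last 3 bases was found in 2.14% of the 5p reads. Without the reads shared with another let-7 sequence, also chosen after seeing the data, the 5p level was 20802 RPM. Leaving out 1 library gave 20588 to 23309 RPM (5p), 74.4 to 79.6 RPM (3p), ratios of 273 to 315, whole-number shares of 42.1% to 49.7%, 22 nt shares of 80.5% to 80.9%, shifted shares of 0.508% to 0.558% and mismatching 3′-ends of 1.77% to 1.85%. No paired analysis was possible because the replicate numbers have no second condition to pair with. Hairpins were compared within each library by their values. The number of 3p reads limits the copy-specific values, with 64 to 187 reads per library for the let-7f copies.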

Other observations

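Few reads came from outside the arms of these hairpins. At Mirlet7f-2, 36.4, 34.1 and 34.2 reads in replicates 1, 2 and 3 ended on the base directly before the 5p start. Of these, 19, 14 and 17 reads were 18 nt long and 16, 17 and 14 reads were 19 nt long. At each of the other 5 hairpins no more than 1.5 such reads were found in a library. Reads that start in the loop numbered 10, 4 and 1 at Mirlet7f-2 and 1, 6.5 and 3 at Mirlet7c-2, and no more than 2.08 in a library at the others.

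Reads that start 1 base before the 5p start were rare, and some carried a first base that the hairpin does not encode. At Mirlet7a-1 they numbered 4.33, 8.67 and 7.67, of which 3, 2.67 and 3.67 began with a mismatching C and 1, 5 and 2 had no mismatch. At Mirlet7f-1 they numbered 17.5, 18 and 22, of which 17.5, 17 and 22 began with a mismatching C. At Mirlet7c-1 they numbered 13.8, 8 and 18, of which 11.5, 6.5 and 15 began with a mismatching C. The values with a mismatching C were the same at Mirlet7a-2 and Mirlet7c-2 as at their copies, and were 20.5, 17 and 24 at Mirlet7f-2. They include reads divided between copies and do not count the reads of 1 hairpin. At Mirlet7f-2 the reads without a mismatch at this start were 1, 5 and 10.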
